A study of Sus scrofa with 4 samples.

Results

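Late maturation of pig adipocytes in culture was examined here by setting the RNA of D8 cells beside that of D4 cells, both taken from subcutaneous preadipocytes of male Chinese Erhualian piglets. The piglets were 5 days old, and their cells received dexamethasone, 3-isobutyl-1-methylxanthine and insulin from D0 to D2, insulin alone from D2 to D4, and growth medium without added hormones after D4. D0 cells were taken at confluence, before the hormones were added, D4 and D8 cells share the same induction, and the D8 cells had been without added insulin for the last 4 of their 8 days. RNA of 3 piglets was pooled into 1 library per stage, so that a difference between stages may also be one between libraries, and no value here has a replicate error or a p-value. D0 and D2, with 1 pooled library each, are given beside the comparison.

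The comparison held the 9954 of 16192 mRNAs and the 765 of 5615 lncRNAs with FPKM of at least 1 at D4 or D8. FPKM, in which the fragments of a gene are divided by its length and by the fragments of its library, was the unit of both. A ratio is given as log2((D8 FPKM + 0.1)/(D4 FPKM + 0.1)) unless stated otherwise. A gene is said to have risen or fallen when it was at least 2-fold higher or lower at D8. At the edge of the filter, GMEB2, with FPKM of 1.0 at D4 and 0.918 at D8, was kept, and BBS1, with 0.999 and 0.290, was not. Of 8623 circRNAs, 1758 had at least 10 reads across their back-splice junction at D4 or D8 and were described separately. The libraries held 74358922 fragments at D4 and 54128151 at D8. The 95% intervals come from read numbers, belong to the ratio of FPKM without the pseudocount, and cover counting error only.

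Adipocyte formation runs through a cascade in which CEBPB and CEBPD, induced by the hormones, switch on PPARG and CEBPA, and these in turn maintain the genes of lipid storage. Preadipocytes are fibroblast-like cells with actin stress fibers and a fibrillar matrix, and both are taken down as the cells round up and build a basement membrane. Insulin drives lipid synthesis through SREBF1 and keeps the FOXO factors out of the nucleus, while dexamethasone acts through the glucocorticoid receptor.

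Between D4 and D8, 557 mRNAs rose, which was 5.60% of the mRNAs compared, and 1098 fell, which was 11.0%. The median log2 ratio over all 9954 mRNAs was -0.22 (quartiles -0.63 and 0.17), so that the typical mRNA was slightly lower at D8. A ratio of at least 4 was found for 138 mRNAs that rose and 113 that fell. With the median of mRNAs at FPKM of at least 1 in both libraries, -0.20, set to 0, 746 rose and 672 fell, and the share of risen genes among those that moved went from 33.7% to 52.6%. With D8 scaled to the same sum of mRNA FPKM as D4, 513 rose and 1211 fell, and the share of risen genes was 29.8%. Centring puts about as many ratios above 0 as below by construction, so that it cannot tell whether a general shift is real. The same sum of mRNA FPKM kept the excess of fallen over risen mRNAs. Which scaling is closer to the RNA of the cells was not tested. Each ratio is to be read against the median of -0.22, and each count in a list against the 5.60% and 11.0% of all mRNAs.

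The ratio also moved with the length and the level of the mRNA. Lengths were recovered from the deposited values, and in the shortest of 4 length classes of equal size the median log2 ratio was 0.01, whereas it was -0.20, -0.31 and -0.39 in the following classes. In the shortest class 207 of 2489 mRNAs rose and 165 fell, and in the longest class 100 of 2489 rose and 373 fell. By level, the median went from -0.37 among the 4089 mRNAs with a mean FPKM under 5 to 0.08 among the 531 with a mean of 100 or more, as the plot of medians by level and length shows. The part of length and level in the results below was not tested beyond an alternative in which each of 20 bins of length was centred, under which 757 mRNAs rose and 577 fell.

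**Figure D1:**
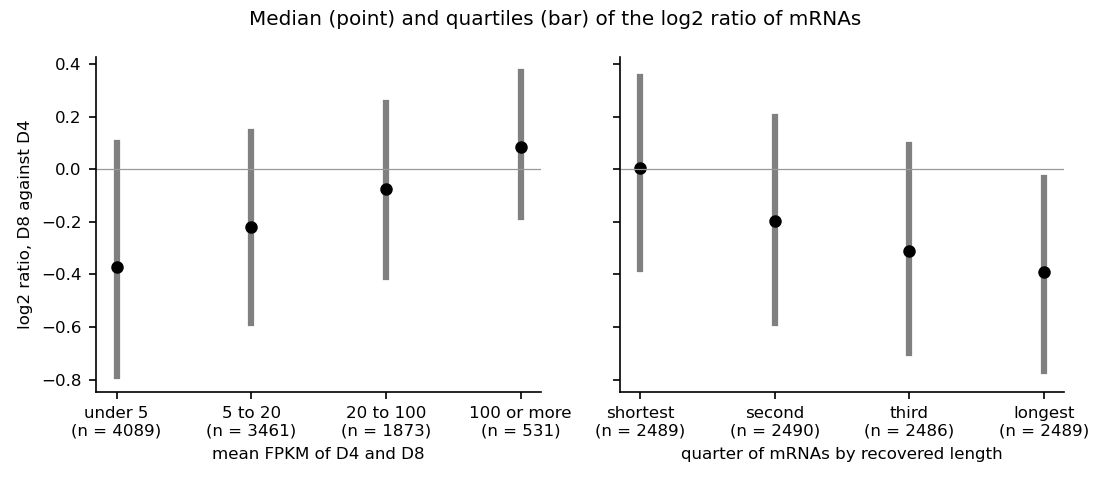
The log2 ratio of D8 to D4 (y axis, FPKM with a pseudocount of 0.1) is plotted for mRNAs by mean FPKM (left) and by class of recovered length (right), with the median as a point, the quartiles as a bar and the number of mRNAs below each. The median falls from 0.01 in the shortest class to -0.39 in the longest and rises from -0.37 in the lowest level class to 0.08 in the highest.

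As groups, the mRNAs that moved after D4 had moved the other way at the start of differentiation. D2 and D0 share no library with D4 and D8, and among the 557 mRNAs that rose the median log2 ratio of D2 to D0 was -1.60, with 380 (68.2%) at least 2-fold lower at D2 and 17 at least 2-fold higher. Among the 1098 that fell it was 0.71, with 379 (34.5%) at least 2-fold higher at D2 and 10 at least 2-fold lower. Over all 9954 mRNAs the median was -0.02, and 10.7% were at least 2-fold lower and 7.39% at least 2-fold higher at D2. Across the mRNAs, Spearman's rho between the 2 ratios was -0.63 (n = 9954 genes, which are not independent of each other). The median FPKM of the risen genes was 7.96, 2.14, 2.09 and 6.41 at D0, D2, D4 and D8, and that of the fallen genes was 2.20, 3.74, 5.30 and 1.97. The D4 and D8 medians of these groups follow from how the groups were made, whereas those of D0 and D2 do not.

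**Figure D2:**
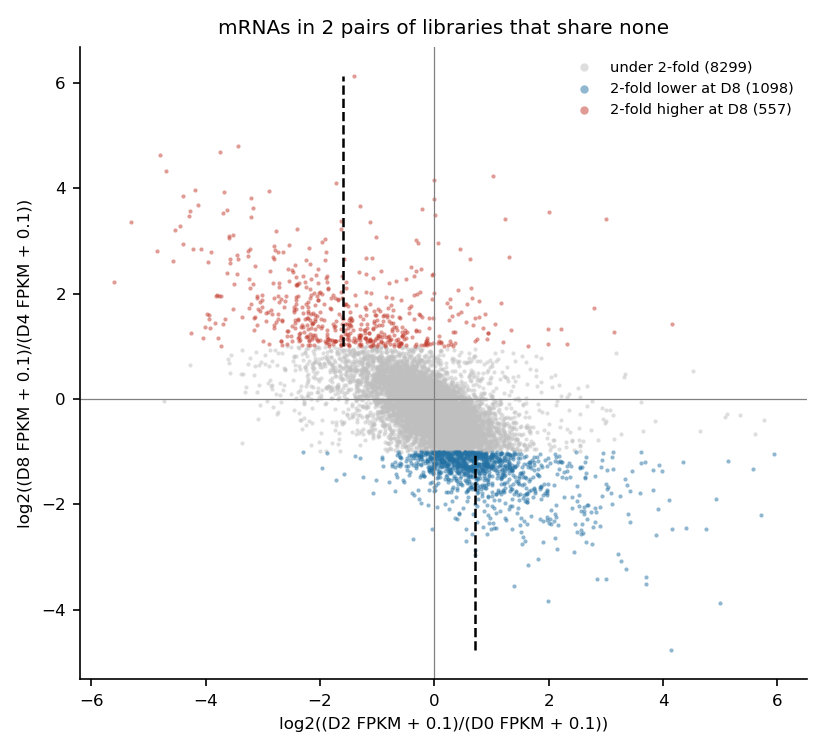
Each point is 1 of 9954 mRNAs, with the log2 ratio of D2 to D0 on the x axis and that of D8 to D4 on the y axis, red for the 557 at least 2-fold higher and blue for the 1098 at least 2-fold lower at D8. Dashed lines mark the median on the x axis, -1.60 for the red and 0.71 for the blue genes.

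Among the 4446 mRNAs with FPKM of at least 10 at D4 or D8, the 20 largest rises had log2 ratios from 2.96 to 6.14. These were COL11A1, ACTG2, CRABP2, ELN, MYL1, INHBE, ACTA2, CTHRC1, CRYAB, C9H11orf70, CIDEC, MFAP5, CNN1, S100A4, DES, DKK2, S100A1, TMEM229A, ADIRF and RAMP1. At D2, 19 of the 20 were below their D0 level, the exception being CIDEC. The 20 largest falls had log2 ratios from -4.77 to -2.44 and were ADAMTS15, SULT1A3, SLC43A2, ADAMTS4, rna78601, CEACAM1, LOC100625479, TGFBR3, ANGPTL4, C1H14orf37, rna78603, SOCS3, FZD4, ID1, NID1, SLC1A3, IL17RD, BMPER, SMAD3 and RIPOR3. All 20 were higher at D2 than at D0. The rows rna78601 and rna78603 are labelled as protein-coding in the files, but the pig reference annotation places a mitochondrial rRNA at each of these positions. Their FPKM was 650 and 921 at D4 and 73.0 and 141 at D8. The RNA had been depleted of rRNA, and the part of that step in these 2 falls was not tested. Another 16 rows of this kind, at positions of mitochondrial tRNAs, all had ratios below 0, from -1.21 to -0.52. Without these 18 rows 1093 mRNAs fell in place of 1098.

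Genes of the smooth muscle contractile apparatus rose together. Of 22 measured genes of this list, 15 rose and 1 fell, against 5.60% and 11.0% of all mRNAs, and the median log2 ratio was 1.71 (1.91 with the ratios centred). The contractile genes are also those of smooth muscle cells and of myofibroblasts, and in these pooled cultures a change in the share of such cells and a change in RNA per cell cannot be told apart. ACTA2, smooth muscle alpha-actin (chromosome 14, 100868145 to 100886732 of Sscrofa11.1), had FPKM of 2907, 324, 225 and 2762 at D0, D2, D4 and D8. Its level at D8 was 12.3-fold that at D4 (95% interval 12.1 to 12.4) and close to that at D0. ACTG2, the enteric gamma-actin (chromosome 3, 69097366 to 69121542), had FPKM of 562, 41.9, 12.0 and 315, and was 26.2-fold higher at D8 (24.8 to 27.7). The actin-binding calponin CNN1 was at 94.3, 4.22, 2.39 and 24.2, and transgelin (TAGLN) was at 2767, 297, 277 and 1987. DES, which encodes the intermediate filament desmin, regained the smallest part of its D0 level among these, with FPKM of 436, 37.7, 4.05 and 35.7. The tropomyosins TPM1 (log2 ratio 1.96) and TPM2 (2.86), the myosin light chains MYL6 (1.66) and MYL9 (1.62), and caldesmon CALD1 (1.03) also rose. ITGA7, an integrin that binds laminin, was the member that fell, from 48.9 to 21.7, after 2.23 at D0 and 10.6 at D2. The 24 genes of the list held 2.48%, 0.41%, 0.34% and 1.79% of the summed mRNA FPKM at D0, D2, D4 and D8.

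The general actin cytoskeleton moved in the same direction but by less. Of 38 measured genes, 12 rose (31.6%) and none fell, against 5.60% and 11.0% of all mRNAs. The median log2 ratio was 0.60. TMSB4X, which sequesters actin monomers, had FPKM of 4435, 807, 687 and 2303, and TPM4 had 2385, 578, 400 and 1555. VIM, the vimentin of fibroblast intermediate filaments, went from 766 at D4 to 1898 at D8. The ubiquitous actins ACTB (174 and 267, log2 ratio 0.62) and ACTG1 (163 and 219, 0.43) did not reach 2-fold. Subunits of the ARP2/3 complex, which nucleates branched actin, were split between ACTR3 (1.64), ARPC2 (1.17), ARPC1B (1.17) and ARPC3 (1.02), which rose, and ACTR2 (0.23) and ARPC1A (0.29), which did not pass the ratio. LGALS1, a secreted galectin and among the 10 most abundant mRNAs at D8, had FPKM of 5722, 1535, 899 and 4420.

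YAP and TEAD are transcription regulators that respond to cell tension. Of 19 genes listed as their targets or partners, 7 rose (36.8%) and none fell, against 5.60% and 11.0% of all mRNAs. The median log2 ratio was 0.62. CTGF had FPKM of 44.5, 2.01, 6.70 and 52.0, and ANKRD1 had 1.72, 0.0675, 0.0499 and 4.07. The value of ANKRD1 at D4 rested on 7 reads, and its ratio of 81.6 had a 95% interval of 39.3 to 204. THBS1 (212 and 621 at D4 and D8), CYR61 (45.9 and 118), AXL (4.08 and 18.8) and CRIM1 (5.16 and 10.6) also rose. The regulators themselves changed little, with log2 ratios of 0.19 for YAP1, -0.19 for WWTR1 and 0.06 for TEAD1.

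**Figure D3:**
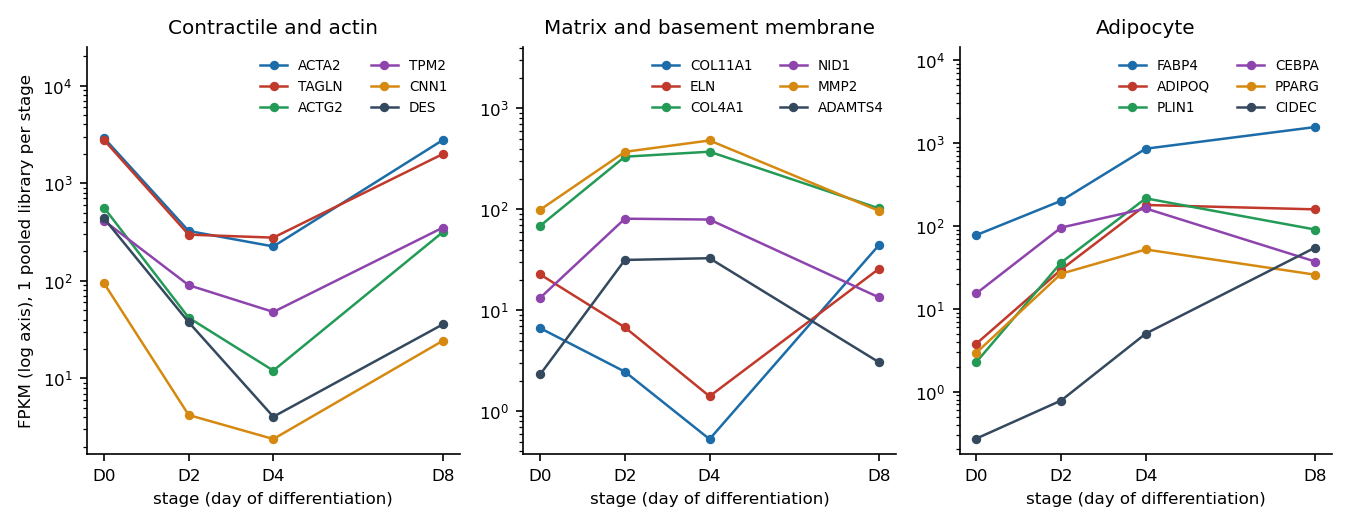
FPKM (y axis, log axis) of 18 genes is plotted at D0, D2, D4 and D8 (x axis, in days), with 1 point per pooled library and no error because there are no replicates. The contractile genes and COL11A1 and ELN are lowest at D4, COL4A1, NID1, MMP2 and ADAMTS4 are high at D2 and D4, and CIDEC and FABP4 rise at every stage.

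Of 34 genes of the fibrillar matrix, 10 rose and 2 fell (median log2 ratio 0.21), against 5.60% and 11.0% of all mRNAs. COL11A1, a chain of the minor fibrillar collagen XI (chromosome 4, 115638381 to 115841679), had FPKM of 6.65, 2.46, 0.529 and 44.1 at D0, D2, D4 and D8, which at D8 was 83.5-fold the D4 level (74.1 to 94.4). ELN, the elastin core of elastic fibers, had 22.6, 6.77, 1.41 and 25.7, and MFAP5, a microfibril component, had 135, 43.3, 9.09 and 95.4. COL8A1 (2.54), COL14A1 (2.01), the small proteoglycan ASPN (1.78), POSTN (1.32) and LOXL3 (1.11) rose, as did P4HA1 (1.58) and PLOD2 (1.31), enzymes that hydroxylate procollagen. The main chains of collagens I and III stayed near their D4 levels, with COL1A2 at 2646 and 2484, COL1A1 at 193 and 211, and COL3A1 at 2058 and 1624. LUM (186 and 77.0) and COL6A3 (85.1 and 30.6) were the members that fell.

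Of 17 basement membrane genes, 6 fell (35.3%) and 1 rose (5.88%), against 11.0% and 5.60% of all mRNAs, with a median log2 ratio of -0.85. COL4A1, a chain of the collagen IV network, had FPKM of 68.8, 332, 373 and 102, and was 3.64-fold lower at D8 than at D4 (3.60 to 3.68). NID1, the linker nidogen, had 13.3, 80.8, 79.3 and 13.4, so that its D8 level was that of D0. COL4A2 (-1.62), LAMB1 (-1.62), LAMC1 (-1.08) and COL15A1 (-1.05) also fell. LAMB2 rose from 4.15 to 8.49, whereas SPARC, the most abundant member, was at 1320 and 1424. Because these genes are long, the median was also taken with bins of length centred, and was then -0.44, with 4 genes lower and 1 higher.

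Matrix proteases and their inhibitors were mostly lower at D8. Of 23 genes, 10 fell (43.5%) and 4 rose (17.4%), against 11.0% and 5.60% of all mRNAs, and the median log2 ratio was -0.95. The aggrecanase ADAMTS4 had FPKM of 2.32, 31.5, 32.8 and 3.06, and ADAMTS15 (chromosome 9, 57127527 to 57152550), the mRNA with the largest fall, had 0.319, 7.25, 18.3 and 0.575, a 31.9-fold decrease from D4 (27.5 to 37.1). The gelatinase MMP2 had 99.3, 371, 481 and 96.8, and its membrane-bound activator MMP14 had 125, 271, 288 and 86.9. The interstitial collagenases went the other way, with MMP1 at 6.38 and 19.8 and MMP13 at 1.02 and 6.88, and MMP16 and MMP23B also rose. The inhibitors TIMP1 (97.2 and 49.4), TIMP2 (44.9 and 28.9) and TIMP3 (7.41 and 5.03) were lower without reaching 2-fold, and TIMP4 fell from 2.06 to 0.482.

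**Figure D4:**
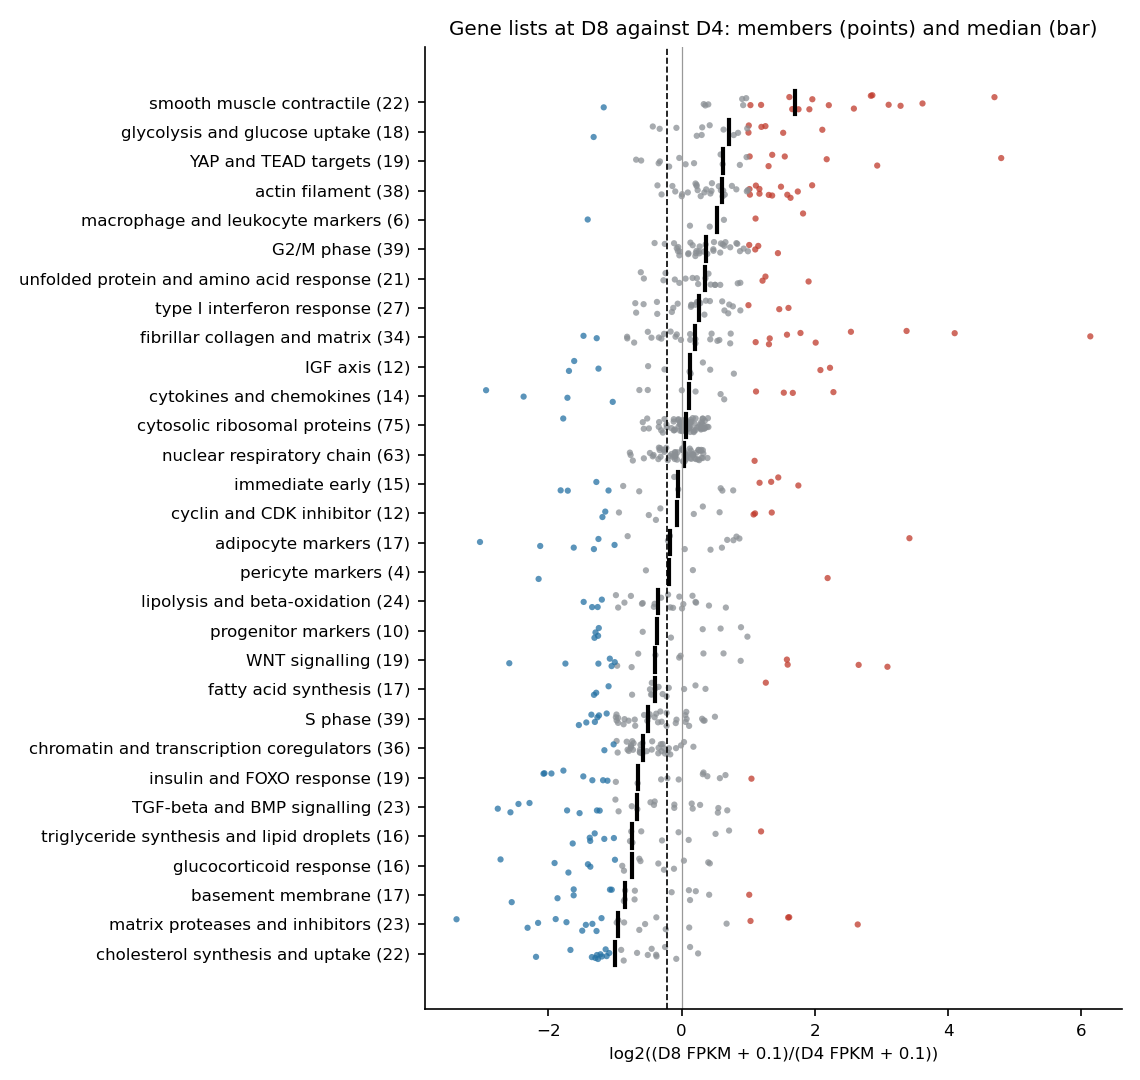
For each of 30 gene lists with at least 3 measured genes (number in parentheses), the log2 ratio of D8 to D4 (x axis) of every member is drawn as a point, red where at least 2-fold higher, blue where at least 2-fold lower and gray otherwise, with the median as a black bar. The dashed line is the median of all mRNAs, -0.22. The contractile list lies highest (1.71) and the cholesterol list lowest (-1.0).

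The adipocyte identity of the cells was checked first. ADIPOQ, the adipokine adiponectin, had FPKM of 3.80, 29.6, 179 and 158, FABP4, a fatty acid carrier, had 77.5, 201, 853 and 1557, and PLIN1, which coats lipid droplets, had 2.28, 36.1, 215 and 90.3. All 3 were far higher at D8 than at D0. FABP3, a related carrier and among the 10 most abundant mRNAs at D8, had 153, 638, 3254 and 3805. Of 10 progenitor markers, 4 fell (40%, against 11.0% of all mRNAs) and none rose (median log2 ratio -0.37). With bins of length centred, in contrast, none was 2-fold lower and 2 were 2-fold higher. Those that fell were the growth factor receptors PDGFRA (149 and 60.8 at D4 and D8) and PDGFRB (28.8 and 12.0), ENG and ZNF423. Over the 10 markers, 6 had ratios below 0 and 4 had ratios above 0. THY1 was at 88.0 and 78.8 without reaching 2-fold. DLK1 was not analysed here.

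The adipogenic transcription factors were past their highest level at D8. CEBPA (chromosome 6, 43083200 to 43085884) had FPKM of 15.4, 95.3, 162 and 37.1, a 4.37-fold decrease from D4 to D8 (4.24 to 4.49). PPARG (chromosome 13, 68301566 to 68433951) had 2.95, 26.4, 51.9 and 25.8, a 2.01-fold decrease (1.94 to 2.09) that lay at the threshold and was under 2-fold once the ratios were centred (log2 ratio -0.81 in place of -1.01). CEBPB had 20.6, 22.4, 31.1 and 12.8 and fell. CEBPD, at 140, 299, 178 and 165, and SREBF1, at 0.734, 0.970, 3.34 and 2.61, did not reach 2-fold between D4 and D8.

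Of 17 measured adipocyte markers, 1 rose and 6 fell, which was 5.88% and 35.3% of them, against 5.60% and 11.0% of all mRNAs. The median log2 ratio was -0.18 and depended on the setting, from -0.81 among the 13 with FPKM of at least 5 to 0.20 with bins of length centred. CIDEC, which enlarges lipid droplets by fusing them, was the 1 that rose, from 5.01 to 54.6 after 0.271 at D0 and 0.780 at D2. This was a 10.9-fold rise (9.99 to 11.9). The lipases LIPE (31.9 and 10.3) and PNPLA2 (17.9 and 7.14), PLIN1, PPARG, CEBPA and PCK1 (9.39 and 1.06), an enzyme of glycerol synthesis in fat cells, fell. FABP4 (0.87), PLIN4 (0.82) and CIDEA (0.43) were higher at D8 without reaching 2-fold, and LPL was at 250 and 142. ADIRF, a small adipogenesis-related protein outside the list, had 1.13, 0.887, 10.8 and 88.3.

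Single genes of lipid synthesis moved in both directions. Among 17 genes of fatty acid synthesis, 1 rose (5.88%) and 3 fell (17.6%), against 5.60% and 11.0% of all mRNAs. The median log2 ratio was -0.39, and it was -0.14 with bins of length centred, with 1 gene higher and 2 lower. The elongase ELOVL6 had FPKM of 3.67, 4.75, 39.1 and 94, whereas FASN, the fatty acid synthase, was at 17.2 and 17.7 at D4 and D8, ACLY at 156 and 136, and the desaturase SCD at 1053 and 772. ACACA, which makes malonyl-CoA, fell from 51.7 to 24.1, together with ELOVL5 (87.3 and 35.8) and PGD (153 and 61.4). Of 16 genes of triglyceride synthesis and lipid droplets, 6 fell (37.5%) and 1 rose (6.25%), with a median of -0.75. With bins of length centred the median was -0.49, with 3 genes lower and 1 higher. GPAT4 (58.8 and 22.6), LPIN1 (4.03 and 1.57), BSCL2 (9.50 and 3.61), which encodes seipin, and FITM2 (23.9 and 7.63) fell, while AGPAT2 rose from 6.60 to 15.2 and the acyltransferase DGAT2 stayed at 57.7 and 47.1. Of 24 genes of lipolysis and beta-oxidation, none rose and 4 (16.7%) fell, among them G0S2, CPT2 and ABHD5, against 11.0% of all mRNAs. The lipases LIPE and PNPLA2, which also fell, were listed with the adipocyte markers and are not in this count. The median of the 24 genes, -0.36, was -0.094 with bins of length centred.

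The sterol pathway was the list with the lowest median. Of 22 genes of cholesterol synthesis and uptake, 11 fell (50%, against 11.0% of all mRNAs) and none rose, and the median log2 ratio was -1.0. With bins of length centred the median was -0.85, with 6 genes lower. SQLE, which epoxidises squalene, had FPKM of 27.8, 27.7, 45.9 and 14.4, and was 3.2-fold lower at D8 than at D4 (3.05 to 3.35). The regulator SREBF2 went from 6.56 to 2.80. FDPS (122 and 48.0), HMGCS1 (93.4 and 38.0), ACAT2 (111 and 46.5), FDFT1 (45.0 and 19.3), STARD4 and DHCR7 also fell.

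Genes of the insulin and FOXO axis were mostly lower at D8, when insulin was no longer added. Of 19 genes, 8 fell (42.1%) and 1 rose (5.26%), against 11.0% and 5.60% of all mRNAs, with a median log2 ratio of -0.66. With bins of length centred the median was -0.34, with 5 genes lower and 1 higher. The insulin receptor INSR had FPKM of 1.11, 3.61, 5.68 and 1.39, FOXO3 had 1.34, 5.43, 8.06 and 2.28, and SESN3 had 2.29, 6.46, 8.39 and 1.94. IRS2, FOXO1, SESN1, BCL6 and KLF15 also fell. FBXO32, a ubiquitin ligase, rose from 2.73 to 5.75, and the insulin-responsive glucose transporter SLC2A4 was at 8.80 and 7.58. Of 16 genes induced by glucocorticoids, 6 fell (37.5%) and none rose (median -0.75). With bins of length centred the median of these 16 was -0.51, with 4 genes lower. ANGPTL4, a secreted inhibitor of lipoprotein lipase, had 19.2, 72.2, 57.1 and 8.59, GLUL had 35.5, 288, 412 and 127, and KLF9 had 8.67, 55.4, 74.8 and 28.2. LCN2 (-1.91), ZBTB16 (-1.37) and FKBP5 (-1.0) also fell. TSC22D3, at 3.26, 33.5, 23.6 and 31.7, and DUSP1, at 60.8 and 62.3 at D4 and D8, were not lower. Because the hormones were withdrawn at set days, the medium and the day cannot be told apart.

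The IGF and WNT lists had members that moved in both directions, whereas the TGF-beta and BMP list was mostly lower at D8. In the IGF axis, IGFBP5 (6.05 and 28.7) and STC2 (5.55 and 23.9) rose, and IGF1 (44.8 and 14.6), IGFBP3 (1.31 and 0.336) and IGF2R (5.40 and 2.22) fell, with a median log2 ratio of 0.13 over 12 genes. In the TGF-beta and BMP pathways, 8 of 23 genes fell (34.8%, against 11.0% of all mRNAs) and none rose (median -0.66). With bins of length centred the median was -0.46, with 8 genes lower and 1 higher. ID1, a direct target of BMP signalling, had FPKM of 93.9, 178, 303 and 51.0, its relative ID2 went from 15.3 to 3.07, and the inhibitory SMAD6 and SMAD7 fell with log2 ratios of -1.72 and -1.27. The TGF-beta effector SMAD3 had 4.17, 8.75, 18.0 and 3.21, and the coreceptor TGFBR3 had 3.37, 23.3, 22.7 and 3.27. INHBB and TGFBI were the others that fell. Among 19 WNT pathway genes, 4 rose (21.1%) and 6 fell (31.6%), against 5.60% and 11.0% of all mRNAs (median -0.39). With bins of length centred 5 were 2-fold higher and 2 were 2-fold lower, and the median was -0.19. The receptor FZD4 had 2.18, 33.5, 60.4 and 9.97, whereas the secreted inhibitors DKK2, at 12.2, 0.923, 1.16 and 10.6, and SFRP4, at 26.1, 3.64, 1.03 and 7.05, rose. FZD6 and WISP1 rose, and FZD8, NKD1, LRP6, LEF1 and TCF7L2 fell.

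Of 39 genes of S phase, none rose and 7 (17.9%) fell, against 11.0% of all mRNAs, and the median log2 ratio was -0.50. With a pseudocount of 1, 1 of the 39 was 2-fold lower. Of 39 genes of G2 and M phase, 4 (10.3%) rose and none fell, against 5.60% of all mRNAs that rose, and the median was 0.36. The replication helicase subunit MCM3 had FPKM of 5.97, 1.94, 14.9 and 5.47, and the licensing factor CDT1 had 1.05, 0.252, 2.04 and 0.636. The mitotic cyclin CCNB1 had 43.8, 3.09, 11.6 and 25.9, and ANLN, of the cytokinetic ring, had 21.1, 1.38, 4.93 and 13.6. TOP2A, at 18.1, 2.75, 13.8 and 13.3, did not move between D4 and D8. From D0 to D2 both lists had medians below 0. CCND1 (2.79 and 7.27) rose and RBL2 (6.35 and 2.73) fell.

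Several genes of glucose use rose. Of 18 genes of glycolysis and glucose uptake, 6 rose (33.3%) and 1 fell (5.56%), against 5.60% and 11.0% of all mRNAs (median log2 ratio 0.71). The transporters SLC2A3 (7.48 and 32.7) and SLC2A1 (7.81 and 18.1), LDHA (197 and 471), GAPDH (345 and 692), PGAM1 (226 and 456) and ENO2 (0.687 and 2.16) rose, and ALDOC fell from 115 to 45.8. GAPDH lay at the threshold, with a log2 ratio of 1.0. In the list of unfolded protein and amino acid responses, CHAC1 (3.70 and 14.2), DDIT3 (60.2 and 144) and ASNS (59.6 and 138) rose among 21 genes, none fell, and the median was 0.36. All 3 are known targets of ATF4, which was at 141 and 253 (0.84) and did not reach 2-fold. The part of ATF4 in these rises was not tested.

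Cytokines and immediate early genes had no common direction, whereas most interferon-stimulated genes had ratios above 0. Of 27 interferon-stimulated genes, RSAD2, IFIT2 and ISG15 (77.1 and 155) rose and none fell (median log2 ratio 0.26). Of 14 cytokines and related genes, IL1A, CCL2 (6.65 and 21.4), IL33 and IL18 rose, and CXCL12, CXCL14 (107 and 20.5), NFKBIA (74.7 and 22.7) and CCL19 fell (median 0.11, and -0.83 among those with FPKM of at least 5). Of 15 immediate early genes, KLF6 (8.07 and 27.4), JUN (2.83 and 7.92), KLF4 and ATF3 rose, and MYC (14.3 and 3.99), NR4A3, EGR1 and FOS fell (median -0.05). SOCS3, a feedback inhibitor of cytokine signalling, had 7.09, 21.1, 11.7 and 1.81.

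Genes of translation and respiration moved little. Of 75 cytosolic ribosomal protein genes none rose and 1 fell, with a median log2 ratio of 0.07, and they held 31.9% of the summed mRNA FPKM at D4 and 31.8% at D8. The 1 that fell was RPS29, at 451, 761, 2058 and 600. Of 63 nuclear genes of the respiratory chain, NDUFB1 (85.2 and 182) rose and none fell, with a median of 0.03. Of 36 chromatin and transcription coregulators, which are long genes, none rose and CHD6 and MED12 fell. With bins of length centred none fell by 2-fold, and the median of -0.59 was -0.17. The most abundant mRNA at D8 was EEF1A1, the translation elongation factor, at 8282 and 8970, followed by the ribosomal protein genes RPS15 (4425 and 4472) and, after LGALS1, RPS23 (4173 and 4374).

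Markers of endothelial and blood cells were low. Of 8 endothelial genes found in the files, PECAM1 (1.70 and 1.87 at D4 and D8) was the only 1 to reach FPKM 1 at D4 or D8, VWF was listed at 0 in both libraries, and the summed FPKM of the list was 1.97 and 2.03. The sum over 11 macrophage and leukocyte genes was 11.6 and 9.56, with PTPRC at 0.0104 and 0.0712. AIF1 (0.225 and 1.05) and C1QA (0.582 and 1.37) rose, and CD14 (7.54 and 2.78) fell. Of 6 pericyte genes, CSPG4 rose from 0.516 to 2.72 and ABCC9 fell from 68.6 to 15.4, while RGS5 was at 0.742 and 0.352 and MCAM at 0.103 and 0.105. Of 5 skeletal muscle genes, MYL1 rose from 0.992 to 16.8, but MYOG was listed at 0 in both libraries and ACTA1 was at 0.114 and 0.460. In the list of epithelial, mesothelial and Schwann cell markers, KRT5 was at 180 and 275, and CDH1 was at 0.835 and 0.407. The part of such cells in the results was not tested.

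The lncRNAs spread more widely than the mRNAs. Of 765 lncRNAs, 120 rose (15.7%) and 183 fell (23.9%), with a median log2 ratio of -0.25. By class, 37 of 295 annotated lncRNAs rose and 41 fell (median -0.14), 53 of 266 intergenic transcripts assembled by the authors rose and 82 fell (-0.33), and 30 of 204 antisense transcripts rose and 60 fell (-0.34). Their median recovered length was 840 bases against 3345 for mRNAs, and their median FPKM at D8 was 1.35 against 6.32. With FPKM of at least 5 at D4 or D8 required, 14 of 153 lncRNAs rose and 13 fell. As for the mRNAs, the risen lncRNAs had a median log2 ratio of D2 to D0 below 0 (-1.27) and the fallen ones one above 0 (0.56), against 0.10 over all 765.

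Among the 357 lncRNAs with FPKM of at least 2 at D4 or D8, the largest rise was that of LOC100514834 (chromosome 4, 75294209 to 75296319), with FPKM of 39.5, 1.01, 0.0889 and 8.63 at D0, D2, D4 and D8. Its D4 value rested on 5 reads and its D8 value on 353. LOC106506455 (chromosome 1, 21061209 to 21116780) was at 0.0341 and 2.16 at D4 and D8, and lies 11091 bases from STX11. The assembled transcripts MSTRG.112794, MSTRG.14590 and MSTRG.103746 completed the 5 largest rises, with D8 values of 2.83, 2.38 and 2.17, and the last 2 were listed at 0 at D4. MSTRG.14590, with 4, 0, 0 and 27 reads at D0, D2, D4 and D8, overlaps STX17 on the other strand. STX17 went from 5.07 at D4 to 3.06 at D8, which is under 2-fold.

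The largest falls were those of MSTRG.86870 (3.40 and 0.128 at D4 and D8), MSTRG.73448 (2.27 and 0.1), LOC102166164 (2.58 and 0.184), MSTRG.59608 (5.44 and 0.937) and LOC110256538 (2.77 and 0.445). The D8 values of the first 2 rested on 2 reads each. MSTRG.73448 is antisense to TM9SF1 (47.8 and 33.9), LOC102166164 to USP34 (7.07 and 5.74) and MSTRG.59608 to BAX (17.5 and 12.0), and none of these sense genes fell by 2-fold. Over all lncRNAs, a measured mRNA overlapped on the other strand for 25 that rose, 48 that fell and 122 that did neither. The sense mRNAs had median log2 ratios of 0.01, -0.34 and -0.12, and 2 of the 25 rose and 10 of the 48 fell, against 13 that rose and 22 that fell among all 195. For the lncRNAs with no such overlap and a measured mRNA within 50 kb, the neighbours had medians of 0.04 beside 43 risen, -0.31 beside 72 fallen and -0.19 beside 192 other lncRNAs.

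Of the 5 most abundant lncRNAs at D8, 1 moved by 2-fold. LOC106509199 (chromosome 1, 236380010 to 236382894), which overlaps CCDC107 on the other strand, had FPKM of 122569, 182459, 168876 and 168911 and took 6.87% of all fragments at both D4 and D8. LOC100621455 was at 1080 and 1490, MSTRG.102817 at 591 and 910, and LOC100525935 at 512 and 632. The antisense transcript MSTRG.17987 (chromosome 2, 6747825 to 6758624) had 593, 1553, 1838 and 582, and its share of fragments went from 1.74% at D4 to 0.551% at D8.

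circRNAs are closed loops made when a downstream splice site joins an upstream one, and each was counted by the reads across that junction. Their unit, SRPBM, is the number of junction reads scaled by the mapped reads of the library, with 1 junction read worth 5.94 at D4 and 8.40 at D8. Of 1758 circRNAs, 371 were at least 2-fold higher at D8 (21.1%) and 596 at least 2-fold lower (33.9%), with a median log2 ratio of -0.24. The excess of lower circRNAs depended on the minimum, since with at least 5 junction reads in place of 10, 1281 of 4081 were higher and 721 lower, and 1 read is worth more SRPBM at D8 than at D4. Counts under 3 reads were set to 3 reads, the limit that a true count of 0 allows, so that 170 of the higher and 387 of the lower circRNAs have ratios that are bounds. The authors kept circRNAs with at least 2 junction reads, so that a listed 0 may stand for 1 read and such bounds may be too tight. Among the 1201 with at least 3 reads in both libraries, 201 were higher and 209 lower, with a median of -0.03. The median circRNA had 15 reads in the library where it had more.

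**Figure D5:**
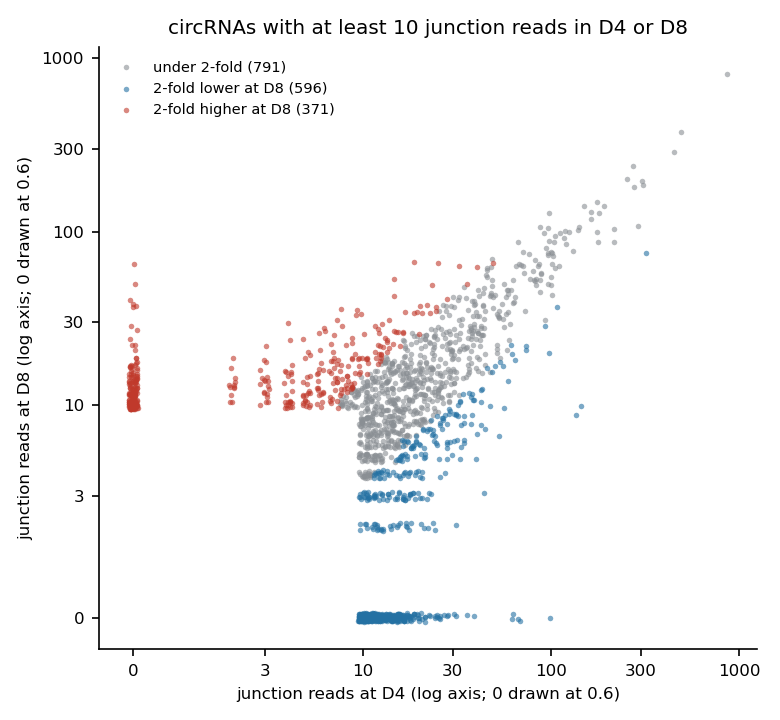
Junction reads of 1758 circRNAs at D4 (x axis) and D8 (y axis) on log axes, with 0 reads drawn at 0.6 and points spread slightly to separate them, red for the 371 at least 2-fold higher and blue for the 596 at least 2-fold lower at D8. The blue and red points along the axes are the 511 circRNAs listed at 0 in one of the libraries.

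Values of 0 lay behind the most extreme circRNAs. The 5 largest rises and the 5 largest falls among the 568 circRNAs with at least 20 reads were all listed at 0 in one of the libraries compared. Most of these were well measured in the other libraries. The circRNA ssc_circ_0005084 within ZEB1 (chromosome 10, 42063616 to 42079536) had 229, 89, 0 and 48 reads at D0, D2, D4 and D8, and ssc_circ_0000820 within REV3L had 61, 97, 0 and 67. These were at least 22.6-fold and at least 31.6-fold higher at D8 when set against the limit of 3 reads at D4. This takes the listed 0 as a true 0 and leaves the counting error of the D8 reads apart. In the other direction, ssc_circ_0002437 within CCT3 had 101, 77, 96 and 0 reads, and ssc_circ_0005319 within RCBTB2 had 70, 29, 71 and 0. The REV3L mRNA fell from 36.2 to 15.6 FPKM while ssc_circ_0000820 was higher, and the CCT3 mRNA was at 189 and 191 at D4 and D8. The 6 compared circRNAs within REV3L, 2 of them higher and 1 lower, had 129 reads in sum at D4 and 133 at D8 (log2 ratio 0.54). A circRNA with 0 reads in 1 library and at least 20 in each of the other 3 was found 8 times with the 0 at D0, 7 times at D2, 6 times at D4 and 6 times at D8, and 171 circRNAs had at least 20 reads in all 4. ZEB1 also gave ssc_circ_0005079, which shares the downstream end of ssc_circ_0005084 and starts 100 bases upstream of it, and which had 855, 559, 442 and 285 reads.

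Among circRNAs with at least 3 reads in both libraries, the largest falls were those of LPCAT2, which encodes a phospholipid acyltransferase. The circRNA ssc_circ_0003238 (chromosome 6, 30026332 to 30050135) had 15, 96, 144 and 9 reads, a log2 ratio of -3.50 (95% interval -4.66 to -2.53), and ssc_circ_0003237, from the same start, had 17, 76, 146 and 10 (-3.37, -4.46 to -2.45). The LPCAT2 mRNA had FPKM of 5.40, 23.7, 16.1 and 3.47, so that both circRNAs and the mRNA were high at D2 and D4. The largest rise was that of ssc_circ_0002714 within AEBP2, with 32, 21, 4 and 29 reads (3.36, 1.85 to 5.33), while the AEBP2 mRNA was at 5.11 and 7.05. The circRNA ssc_circ_0000569 within ABCA1, a cholesterol exporter, had 0, 0, 4 and 23 reads.

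A host mRNA or lncRNA of the comparison, on the same strand around both ends, was found for 352 circRNAs that were higher, 546 that were lower and 749 that were neither, and the hosts had median log2 ratios of -0.17, -0.29 and -0.25. Of the 352, 18 had a host that rose and 22 a host that fell, and of the 546, 12 and 54, against 27 and 52 of the 749 and 57 and 128 of all 1647. Reads were also summed over hosts with at least 3 circRNAs. ARID1B had 5, 9, 47 and 3 reads at D0, D2, D4 and D8, so that D4 was its highest stage. Its mRNA went from 2.15 at D4 to 1.56 at D8. CANX had 43, 21, 40 and 6 reads while its mRNA was at 130 and 121 at D4 and D8. In PRUNE2, the sum of 3 circRNAs was 80, 39, 31 and 55 reads, and the mRNA went from 5.60 at D4 to 12.9 at D8.

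None of the 5 most abundant circRNAs at D8 moved by 2-fold. These were ssc_circ_0005779, with 22, 274, 907 and 785 reads and a log2 ratio of 0.29 (0.15 to 0.43), ssc_circ_0005283 within XPO4, with 527, 364, 499 and 355 (0.01, -0.19 to 0.21), ssc_circ_0005079 (-0.13), ssc_circ_0008427 within GRIPAP1 (0.23) and ssc_circ_0008308 within SUGCT (-0.08). The first lies within LOC110256043, whose FPKM was 2.06, 21.7, 41.3 and 57.4, so that the circRNA and its host both had their lowest level at D0.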

How the data were processed

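RNA of 3 piglets was pooled per stage, depleted of rRNA and made into 1 strand-specific library each for D0, D2, D4 and D8. The authors aligned reads to the pig genome (Sscrofa11.1) with HISAT2 2.0.5 and deposited FPKM per gene. For circRNAs, which were found with BWA-MEM and CIRI, they deposited SRPBM in the same column (a scaled value, per the file headers).

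Library totals and, for all 10719 mRNAs and lncRNAs compared, a gene length in whole bases were recovered from the deposited FPKM values. Where several lengths were possible the shortest was taken, so that some read numbers may be whole fractions of the true ones and their intervals too wide. For the SRPBM values, 100% were whole junction reads within 0.01, with 51074 reads at D4 and 37480 at D8. The positions of 20259 of 22944 genes were paired with the RefSeq annotation. Where a symbol had 2 rows, the row with more FPKM stood for it in the lists, and 24 gene names that had been turned into dates were left as they were.

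No test was made, because no stage has replicates. Intervals are exact binomial (Clopper-Pearson), computed from reads without a pseudocount, with scipy 1.17.1. Genes named are the 20 largest rises and falls of mRNAs (FPKM of at least 10), the 5 of lncRNAs (at least 2) and of circRNAs (at least 20 reads), the members of 34 lists that moved 2-fold or had the highest FPKM, 5 adipogenic transcription factors and the most abundant RNAs. Other list members, sense partners and the hosts of several circRNAs were named after their values were seen. The list of mitochondrially encoded genes was not analysed here. The comparison, the members and the lists were chosen with earlier results of these data known. The script was tested on simulated data. Some genes are not reported here.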

Additional observations from a re-analysis of the deposited data

Results flagged for a closer look

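With 1 library per group, no sample was set against others of its group. Signal was found in rows outside the comparison. FPKM of at least 1 was found at D8 for 219 of 339 tRNA genes (214 at D4), for 62 of 153 miRNA precursor genes (77 at D4) and for 23 of 555 pseudogenes (23 at D4). The signal recognition particle RNA gene had FPKM of 584856 at D8 and 443535 at D4.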

How the results depend on the processing

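No paired analysis was possible because each stage has 1 library, and for the same reason leaving out a replicate was not possible. Except where a value's own construction says so, the cause of a change was not tested. A pseudocount of 1 gave 359 mRNAs higher and 525 lower and 67 and 68 lncRNAs, and a filter of FPKM 5 gave 307 and 574 mRNAs and 14 and 13 lncRNAs. With no filter 937 mRNAs were higher, and 741 lncRNAs were higher and 926 lower. FPKM of at least 1 in 3 or more libraries left 26 lncRNAs higher and 60 lower. A ratio of 1.5 gave 1104 and 2713 mRNAs and 290 lower lncRNAs. Centring left 672 mRNAs lower, and centring within bins of length 577. For circRNAs, a minimum of 5 junction reads gave 1281 higher and 721 lower, which turned the direction, since 5 reads over the 3-read limit pass 2-fold only at D8, a minimum of 20 gave 79 higher and 135 lower, and 3 or more reads in both gave 201 and 209.

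The median log2 ratio of D2 to D0 of the mRNAs higher at D8 was -1.45 with a pseudocount of 1, -1.20 with no filter, -1.40 centred, -1.13 with a ratio of 1.5 and -1.42 within bins of length. For the mRNAs lower at D8 it was 0.79, 0.61, 0.87, 0.44 and 0.94 in the same order, and 0.88 with FPKM of at least 5. The median length of the higher mRNAs was 2349 bases with FPKM of at least 5 and 3262 within bins of length. That of the lower mRNAs was 3721 with a pseudocount of 1, 3695.5 with FPKM of at least 5 and 3134 within bins of length, so that the longer length of the lower mRNAs was lost there.

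Some list medians changed sign. With no filter these were adipocyte markers (0.047), the IGF axis (-0.069) and progenitor markers (0.078). With FPKM of at least 5 these were cytokines (-0.83), immediate early genes (0.59) and macrophage markers (-1.41). Centred, these were adipocyte markers (0.024), immediate early genes (0.15), cyclins and CDK inhibitors (0.13) and pericyte markers (0.016), and within bins of length the same lists, at 0.20, 0.15, 0.22 and 0.13. With the same sum of mRNA FPKM the respiratory chain was at -0.020. Between 12 and 17 of 30 lists had medians above 0, and 13 did in the report. Among the mRNAs and lncRNAs named as largest rises and falls, as transcription factors or as most abundant, only PPARG fell under 2-fold with a pseudocount of 1 and under both kinds of centring. Of the list members that rose (91) and fell (107), 18 and 35 were under 2-fold with a pseudocount of 1, none and 25 centred, 2 and 38 within bins of length, and 10 and none with the same sum of mRNA FPKM. The alternatives without mitochondrial rows, within bins of length and with 3 or more reads in both were added after seeing the data.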
